A study of Mus musculus with 24 samples.

Results

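Immediate early genes are switched on within minutes of a stimulus, without any new protein having to be made first, and are switched off again soon after. The 10 genes described here were chosen by name: Fos, Fosb, Jun, Junb, Egr1, Atf3, Klf2, Klf4, Ier2 and Dusp1, out of 16593 genes that had a named probe on the array. They were represented by 12 probes, 3 for Klf4 and 1 for each of the others. The study measured total RNA of male C3HeB/FeJ mice aged 117 days on Illumina bead arrays, comparing carriers of an allele of Ednra, the endothelin receptor type A, with wild-type mice. The title names the allele Ednray129F, derived by ENU (chemical) mutagenesis, and describes its carriers as modelling the human velocardiofacial and DiGeorge syndromes. The 24 arrays fell into 6 groups of 4: heterozygous and wild-type heart, bone, and white adipose tissue (white fat), all on the same strain background, with no homozygous animals among the samples analysed here.

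Signals that reach a cell through receptors such as the endothelin receptors run through kinase cascades to transcription factors already bound at these genes, chiefly serum response factor with its partners and CREB. Fos, Fosb, Jun and Junb encode the subunits of the dimeric transcription factor AP-1, Atf3 a related factor induced by cell stress, Egr1 a zinc-finger factor, and Klf2 and Klf4 Krüppel-like factors known for their roles in endothelium and in differentiation. Dusp1 encodes a phosphatase that switches off the kinases of the same cascade, and Ier2 a nuclear protein of less defined function. In heart, endothelin and mechanical load are textbook inducers of Fos and Egr1.

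RefSeq promoter windows (GRCm38.p6, 250 bases before to 50 bases after an annotated start) were at hand for 8 of the 10 genes. The window of Fos lay at chr12:85473640-85473939 on the plus strand, that of Junb at chr8:84978699-84978998 on the minus strand and that of Dusp1 at chr17:26508423-26508722 on the minus strand. They are shown because Fos and Junb gave the values on which the comparisons between tissues turned, and because Dusp1 held the element recognised by CREB. Capitals mark TATAAA in Fos and Junb and TGACGTCA in Dusp1.
Fos: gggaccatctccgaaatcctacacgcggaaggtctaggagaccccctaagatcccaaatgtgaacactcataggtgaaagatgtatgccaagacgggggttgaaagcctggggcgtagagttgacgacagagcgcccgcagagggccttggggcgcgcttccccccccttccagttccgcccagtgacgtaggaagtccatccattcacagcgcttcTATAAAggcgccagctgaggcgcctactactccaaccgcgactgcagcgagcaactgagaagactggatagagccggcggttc
Junb: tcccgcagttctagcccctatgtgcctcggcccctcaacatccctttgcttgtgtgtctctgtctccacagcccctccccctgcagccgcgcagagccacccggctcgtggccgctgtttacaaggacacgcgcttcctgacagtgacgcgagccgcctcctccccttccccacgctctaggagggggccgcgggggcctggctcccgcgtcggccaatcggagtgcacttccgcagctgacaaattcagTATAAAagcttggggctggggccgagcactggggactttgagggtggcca
Dusp1: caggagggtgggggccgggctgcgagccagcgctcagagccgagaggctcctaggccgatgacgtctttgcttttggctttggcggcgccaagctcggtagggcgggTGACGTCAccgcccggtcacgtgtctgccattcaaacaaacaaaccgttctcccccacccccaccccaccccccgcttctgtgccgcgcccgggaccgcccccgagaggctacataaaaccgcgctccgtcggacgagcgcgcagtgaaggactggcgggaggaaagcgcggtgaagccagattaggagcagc

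Motifs were searched on both strands. TATAAA began 33 bases before the start of Fos (position -33) and at the annotated start itself of Junb (position 0), so 2 of the 8 windows held it, against 15.7% of 27025 genes. The palindrome TGACGTCA, the full CREB element, stood only in the Dusp1 window among the 8, at position -143, and in 2.03% of genes. GGGCGG, the core of an Sp1 box, was present in 7 of the 8, all but Junb, against 38.2% of genes. GCGNGGGCG, the Egr1 element, which can share bases with GGGCGG, was present in 3 (Fosb, Klf2 and Klf4), against 6.27% of genes. The CArG box bound by serum response factor (1.81% of genes) and the AP-1 element TGANTCA (8.97%) had no match in the 8 windows, which says only that those letters do not occur within them.

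Levels below are log2 intensities after background correction and quantile normalization within a tissue. A probe counted as detected on an array when its detection p-value was under 0.05, and a gene was tested when a probe of it was detected on at least 4 of the 8 arrays of the tissue. Ier2 was detected on 0 of 24 arrays, read between 4.28 and 4.91 everywhere, and was not tested. The other 9 genes were tested in each tissue. Fos, Egr1, Junb, Klf2 and Dusp1 were detected on all 24 arrays, Jun on 23, Atf3 on 22 and Fosb on 15. Because Fosb was detected on only 4 of 8 hearts and 4 of 8 bones, its differences there are close to the limit of detection.

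The defining markers of each labelled tissue were present. Summed over the list, linear intensities of cardiomyocyte markers read 57893 to 89328 in heart and at most 224 elsewhere, and those of adipocyte markers 78504 to 84203 in white fat. Bone carried osteoblast markers (28135 to 40638), neutrophil markers (143784 to 188602) and also skeletal muscle markers (88678 to 105590), so its values are those of bone with marrow and muscle. In bulk tissue, fewer cells of a type and less RNA per cell cannot be told apart. The array carried no probe for Ednra, so the genotype labels could not be checked on the mutated gene. One array stood apart: wild-type heart 4 detected 9931 probes against 11467 to 12143 on the other hearts, and missed 15.4% of the probes that the other 7 hearts all detected, where those hearts missed 0.299% to 0.539%. By its markers, heterozygous white fat 2 also stood apart, with neutrophil markers summing to 19591 (1947 to 4193 on the other fat arrays) and skeletal muscle markers to 6782 (1351 to 2354). Heterozygous heart 4 had the highest neutrophil (2707), macrophage (8644) and osteoblast (3189) sums of the hearts, against at most 915, 5743 and 1713 on the others. In bone and white fat, wild-type replicate 3 and heterozygous replicate 4 carried the same mouse number although their genotype labels differ. The genotype differences within each of those tissues are therefore also given without both. The comparisons between tissues and the spread between animals keep these arrays. P-values set a difference of group means against the spread between these samples.

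**Figure D1:**
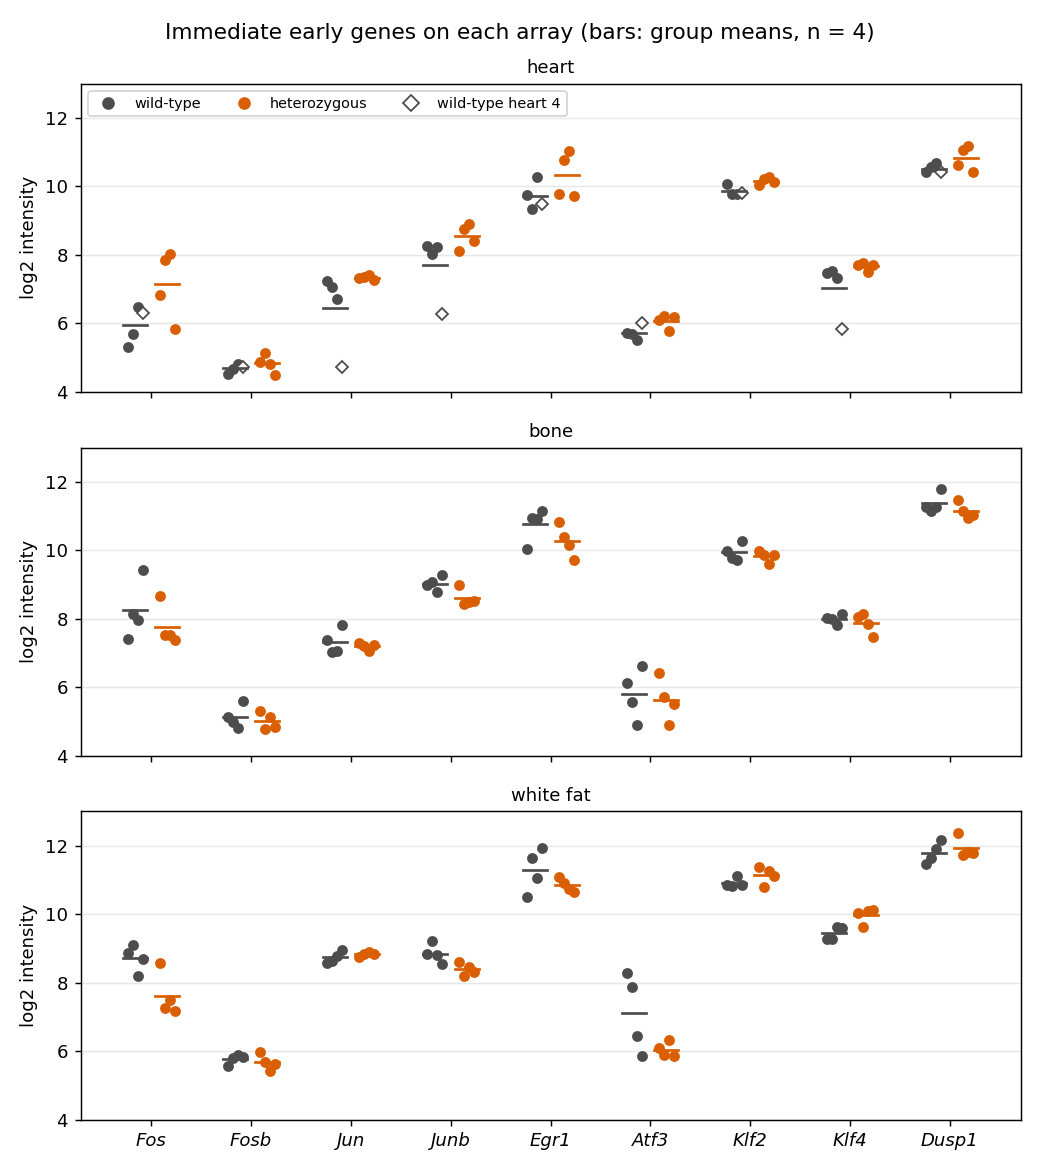
Log2 intensity (vertical axis) of the 9 tested genes on each array, with a panel for each tissue: grey points are wild-type, orange points heterozygous, bars are means of 4 arrays, and the open diamond is wild-type heart 4. That heart sits far below the others for Jun, Junb and Klf4 and within their range for Fos and Egr1, and wild-type bone 4 is the highest bone for Fos at 9.44.

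In heart the immediate early genes read higher in heterozygous than in wild-type mice, each of the 9 with a positive log2 change. None passed the test (limma, adjusted p under 0.05). The SD of the more variable group was larger than the difference for all but Fos, Atf3 and Klf2. The residual SD of the fit to both groups was larger than the difference only for Fosb. The largest difference was that of Fos, 1.20 log2 units or 2.29-fold, which became 0.62 with no background correction, as that of Jun went from 0.90 to 0.40. The median log2 change of the 9 was 0.62, where the median over all 8535 genes was -0.09 and 36% of genes had a positive change. Across the tissue 0% of genes passed, so the threshold was reached by no gene at all. At an unadjusted p under 0.05, Klf2 and Fos were counted as higher, 2 of 9, where 1.71% of all genes were.

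Fos, the AP-1 subunit that needs a partner of the Jun family to bind DNA, read 5.32, 5.70, 6.46 and 6.29 on wild-type hearts 1 to 4 and 6.84, 7.84, 8.04 and 5.83 on heterozygous hearts 1 to 4. Heterozygous hearts 1, 2 and 3 lay above every wild-type heart and heterozygous heart 4 lay among them, so the groups overlapped. The means were 7.14 ± 1.02 (SD, n = 4) and 5.94 ± 0.53 (SD, n = 4), and the difference of 1.20 (SE 0.491) had an adjusted p of 0.609 in limma. Its paralogue Fosb read 4.53 to 4.82 in wild-type and 4.50 to 5.15 in heterozygous hearts, a difference of means of 0.14 (SE 0.159) over all 8 arrays, of which 1 wild-type and 3 heterozygous arrays detected it.

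Jun, the partner that can also pair with itself, read 7.25, 7.06, 6.72 and 4.72 on the wild-type hearts and 7.31, 7.34, 7.42 and 7.27 on the heterozygous hearts. The value 4.72 was that of wild-type heart 4, where the probe was not detected. Jun was the only one of the 9 whose groups did not overlap, where 2.8% of all genes were higher without overlap, although its nearest values of the groups, 7.25 and 7.27, lay close together. Junb, an AP-1 subunit that competes with Jun for partners, read 8.26, 8.03, 8.23 and 6.27 in wild-type and 8.12, 8.75, 8.91 and 8.41 in heterozygous hearts. Wild-type heart 4 was again the lowest, and heterozygous heart 1 lay among the other wild-type hearts. The log2 change was 0.90 (SE 0.498) for Jun and 0.85 (SE 0.433) for Junb.

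Egr1 read 9.74, 9.33, 10.27 and 9.48 in wild-type hearts and 9.79, 10.77, 11.02 and 9.72 in heterozygous hearts. As with Fos, heterozygous hearts 2 and 3 were the highest of the 8, and heterozygous hearts 1 and 4 lay within the wild-type range. Atf3 read 5.72, 5.68, 5.50 and 6.01 in wild-type and 6.10, 6.21, 5.77 and 6.19 in heterozygous hearts. Here the highest wild-type heart was number 4 and the lowest heterozygous heart was number 3, so the order of hearts was not that of Fos. The log2 change was 0.62 (SE 0.331) for Egr1 and 0.34 (SE 0.176) for Atf3.

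Klf2, the flow-responsive factor of endothelium, read 10.06, 9.79, 9.77 and 9.82 in wild-type and 10.03, 10.22, 10.28 and 10.13 in heterozygous hearts, and wild-type heart 1 overlapped the heterozygous group. Its difference was small and comparatively well determined, 0.31 (SE 0.102, 1.24-fold, unadjusted p 0.0153 in limma). Klf4, through the probe ILMN_2999439, read 7.46, 7.52, 7.33 and 5.83 in wild-type and 7.70, 7.76, 7.50 and 7.70 in heterozygous hearts, with wild-type heart 4 far below the rest. The other Klf4 probes were detected on only 1 and 3 of the 8 hearts. Dusp1, the phosphatase, read 10.43, 10.55, 10.69 and 10.41 in wild-type and 10.62, 11.07, 11.17 and 10.43 in heterozygous hearts, again with heterozygous hearts 2 and 3 highest. The log2 change was 0.63 (SE 0.358) for Klf4 and 0.30 (SE 0.168) for Dusp1. Heterozygous heart 3 had the highest value of 6 of the 9 genes and heterozygous heart 2 that of the other 3.

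Without wild-type heart 4 the 9 differences were again all positive, with a median of 0.32 against -0.02 over all genes, of which 44.4% were positive. None of the 9 passed the adjusted threshold, which 0% of genes passed. The array was low for some of the 9 and not for others: against the mean of wild-type hearts 1 to 3 it read -2.29 for Jun, -1.90 for Junb and -1.61 for Klf4, but 0.47 for Fos, 0.38 for Atf3 and -0.06 for Klf2. Of all genes, 14.2% were more than 1 log2 unit lower there. The differences that shrank without it were those of Jun (0.32), Junb (0.36) and Klf4 (0.22), whereas Fos (1.30, SE 0.467), Egr1 (0.53), Atf3 (0.44), Klf2 (0.29), Dusp1 (0.27) and Fosb (0.17) stayed close to their values with it. At an unadjusted p under 0.05, Klf2, Atf3, Jun and Fos were higher, 4 of 9, where 4.78% of all genes were. Atf3 and Jun did not overlap between groups, 2 of 9, where 4.34% of genes were higher without overlap.

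Beside these values, summed macrophage markers (8 of 10 with a probe) read 5096 to 8644 in heterozygous and 3053 to 4972 in wild-type hearts, with Cx3cr1 detected on none of the hearts. The mean raw intensity of the arrays was 433 to 477 in heterozygous and 368 to 421 in wild-type hearts. With array brightness as a covariate none of the 9 passed either, and Fos was 1.56. Brightness did not overlap between the genotypes, so that fit cannot tell brightness and genotype apart. Without heterozygous heart 4 none passed, all 9 were positive and Fos was 1.64. The part of macrophages in the values was not tested.

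In bone the direction was the opposite, with lower readings in heterozygous mice for all 9 genes. For Klf4 this depended on the probe. ILMN_2999439, which stood for the gene, and ILMN_1241903 read lower (-0.11 and -0.07), whereas ILMN_1221264 read higher (0.15), all with overlapping groups. The differences were small, a median of -0.17 against -0.03 over all 9460 genes, of which 56.2% were lower. None of the 9 passed the adjusted threshold, which 0.074% of genes passed. At an unadjusted p under 0.05, Junb was lower, 1 of 9, where 10.4% of all genes were lower, so the count is near the background.

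Fos read 7.41, 8.15, 7.97 and 9.44 on wild-type bones 1 to 4 and 8.66, 7.52, 7.54 and 7.37 on heterozygous bones 1 to 4. A single bone of each genotype stood high, wild-type 4 and heterozygous 1, and the difference of -0.47 (SE 0.365) was smaller than the spread within either group. Junb read 8.98, 9.08, 8.77 and 9.27 in wild-type and 8.98, 8.44, 8.48 and 8.52 in heterozygous bones. Heterozygous bone 1 was the only one of its group to reach the wild-type range. The difference was -0.42 (SE 0.135, 1.34-fold lower, adjusted p 0.128 in limma), and without wild-type bone 3 it was -0.51 with an adjusted p of 0.0384, in a fit in which 806 genes passed.

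Egr1 read 10.04, 10.95, 10.91 and 11.13 in wild-type and 10.82, 10.39, 10.14 and 9.73 in heterozygous bones, a difference of -0.49 (SE 0.236) between groups that overlapped through wild-type bone 1. Atf3 read 6.12, 5.58, 4.90 and 6.61 in wild-type and 6.40, 5.73, 4.90 and 5.51 in heterozygous bones, and was not detected on bone 3 of either genotype. Dusp1 read 11.27, 11.14, 11.27 and 11.78 in wild-type and 11.47, 11.14, 10.94 and 11.04 in heterozygous bones. Both genes were highest on wild-type bone 4, followed by heterozygous bone 1. Jun read 7.02 to 7.81 in wild-type and 7.07 to 7.28 in heterozygous bones, Klf2 9.73 to 10.28 and 9.61 to 9.98, and Klf4 (ILMN_2999439) 7.82 to 8.14 and 7.47 to 8.15. Wild-type bone 4 held the highest value of 8 of the 9 genes, the exception being Klf4, and without it the differences of Fosb, Jun, Atf3 and Klf2 turned positive, to between 0.01 and 0.10, and that of Fos shrank to -0.07.

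With wild-type bone 3 and heterozygous bone 4, the arrays of the shared mouse number, left out together, all 9 differences were again negative (median -0.21), where 56.5% of all genes were. None of the 9 passed, although 7.89% of all genes then did. With all bone arrays kept, summed neutrophil markers read 171849 to 188602 in heterozygous and 143784 to 170167 in wild-type bones. Macrophage markers read 26341 to 28340 and 16029 to 25775, and neither pair of ranges overlapped. Endothelial markers (11 of 12 with a probe) were lower without overlap, 9391 to 9938 in heterozygous and 10082 to 11326 in wild-type bones, as were red cell markers (4 of 7 with a probe), 48799 to 51302 and 51675 to 55352. Their part in the result was not tested.

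In white fat the 9 genes divided. Fos, Atf3, Junb, Egr1 and Fosb read lower in heterozygous mice, 5 of 9 where 45.1% of all genes were lower, and Klf4, Klf2, Dusp1 and Jun read higher. None passed the adjusted threshold, which 0.0108% of 9292 genes passed. Fos, Junb and Klf4 were under an adjusted p of 0.1, 3 of 9, where 15.7% of all genes were. Klf4 was counted, here and at the unadjusted p, through its probe ILMN_1241903 only. At an unadjusted p under 0.05 there were 4 of 9, Fos, Junb and Atf3 lower and Klf4 higher, where 29.6% of all genes were, 14% lower and 15.6% higher.

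Fos read 8.85, 9.10, 8.20 and 8.69 on wild-type and 8.56, 7.27, 7.50 and 7.16 on heterozygous fat samples 1 to 4. Heterozygous sample 1 lay within the wild-type range and the other heterozygous samples lay below every wild-type sample. The means were 7.62 ± 0.64 (SD, n = 4) and 8.71 ± 0.38 (SD, n = 4), a difference of -1.09 (SE 0.299, 2.13-fold lower, adjusted p 0.0728 in limma). Junb read 8.85, 9.22, 8.81 and 8.53 in wild-type and 8.61, 8.18, 8.45 and 8.31 in heterozygous fat, a difference of -0.46 (SE 0.148, adjusted p 0.0885 in limma). The groups overlapped only through heterozygous sample 1 and wild-type sample 4. Fosb read 5.58 to 5.90 in wild-type and 5.43 to 5.96 in heterozygous fat, where it was detected on 7 of 8 arrays, and Jun read 8.59 to 8.95 and 8.74 to 8.90.

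Atf3 read 8.30, 7.87, 6.44 and 5.87 on wild-type and 6.08, 5.88, 6.33 and 5.86 on heterozygous fat. Wild-type samples 1 and 2 were far above the other 6, and wild-type sample 4 lay among the heterozygous samples. The difference of -1.08 (SE 0.465, adjusted p 0.156 in limma) therefore rested on that pair of samples. The same pair held the highest summed macrophage markers, 31114 and 24591, where the other wild-type samples read 15689 and 18543 and the heterozygous samples 10776 to 14431. All 8 macrophage markers with a probe were detected on every fat array, and the part of these cells in the values was not tested. Egr1 read 10.49, 11.64, 11.05 and 11.93 in wild-type and 11.10, 10.90, 10.74 and 10.64 in heterozygous fat, with the wild-type samples spread on both sides of the heterozygous ones, a difference of -0.43 (SE 0.265).

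Klf4, which in white fat is among the factors known to act early in fat-cell differentiation, was represented there by the probe ILMN_1241903. It read 9.27, 9.29, 9.62 and 9.60 in wild-type and 10.04, 9.64, 10.10 and 10.13 in heterozygous fat, and the groups did not overlap, as for 8.94% of all genes that were higher. The difference was 0.53 (SE 0.130, 1.45-fold, adjusted p 0.0686 in limma). The other Klf4 probes gave smaller differences with overlapping groups, 0.25 for ILMN_2999439 and 0.15 for ILMN_1221264. Klf2 read 10.84 to 11.11 in wild-type and 10.79 to 11.37 in heterozygous fat (difference 0.22, SE 0.120). Dusp1 read 11.47 to 12.16 in wild-type and 11.73 to 12.36 in heterozygous fat, and its difference of 0.13 turned to -0.02 without heterozygous sample 1.

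Calls appeared in white fat when single wild-type arrays were left out. Without wild-type sample 3, Fos (-1.26, adjusted p 0.0424 in limma) and Klf4 (0.59, adjusted p 0.0387 in limma) passed, in a fit in which 838 genes passed. Without wild-type sample 4, Atf3 (-1.50), Junb (-0.57) and Klf4 (0.59) passed with adjusted p of 0.0374 to 0.0393 in limma, among 1146 genes. With both arrays of the shared mouse number left out, none of the 9 and 0% of all genes passed, and Fos then no longer overlapped between groups, as for 13.3% of genes that were lower. Mean raw intensity of the arrays was 553 to 666 in heterozygous and 702 to 820 in wild-type fat, and with brightness as a covariate every difference but that of Egr1 and Jun shrank. These ranges do not overlap, so the fit cannot tell brightness and genotype apart. Atf3 went from -1.08 to -0.033, Fos from -1.09 to -0.62, Junb from -0.46 to -0.25 and Klf4 from 0.53 to 0.20, and Fosb, Jun and Dusp1 changed sign. Without heterozygous sample 2 the differences were -0.97 for Fos, -0.39 for Junb and 0.64 for Klf4, and none of the 9 passed.

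**Figure D2:**
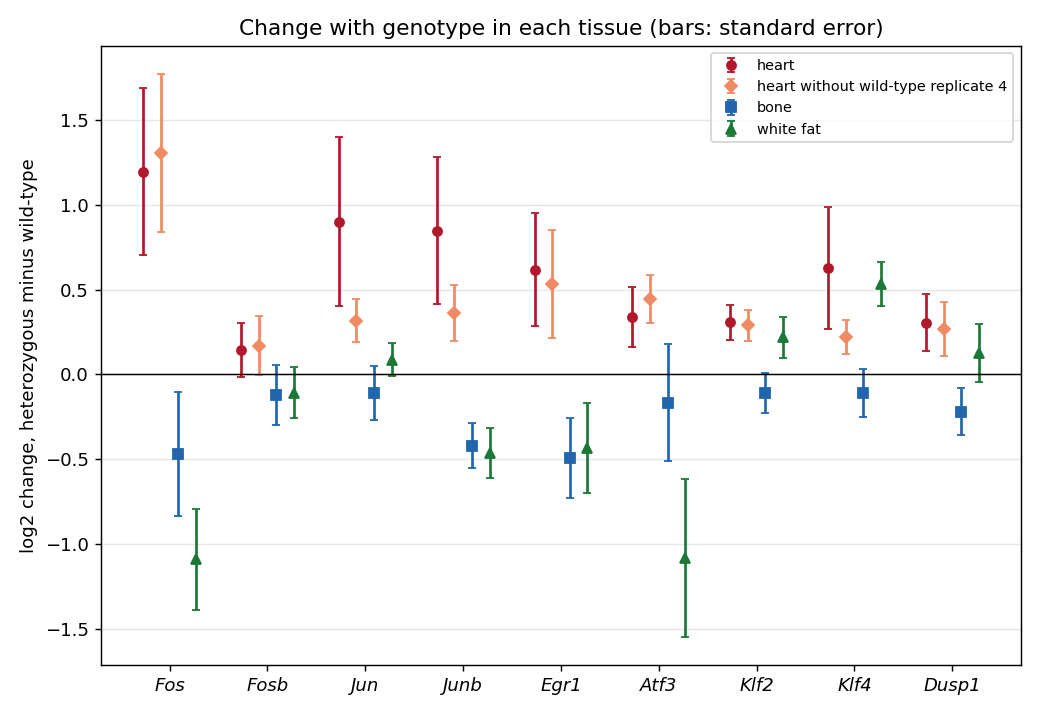
Log2 change, heterozygous minus wild-type (vertical axis), of the 9 tested genes in heart (red), heart without wild-type replicate 4 (light red), bone (blue) and white fat (green), with standard errors as bars. All heart points lie above 0 and all bone points below it, and in white fat Fos and Atf3 lie at -1.09 and -1.08 and Klf4 at 0.53. Klf4 is the probe ILMN_2999439 in heart and bone and ILMN_1241903 in white fat, where ILMN_2999439 gave 0.25.

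The opposite signs raised the question of whether the genotype difference itself differed between tissues, which a fit over all 24 arrays with the animal as a block tested. Klf4 entered that fit through the probe ILMN_2999439 in every tissue, not through the white fat probe ILMN_1241903. The arrays of the shared mouse number were kept in it and formed a block that holds both genotype labels. The difference for Fos was larger in heart than in white fat by 2.22 log2 units (SE 0.632, adjusted p 0.0437 in limma), the only one of 9 past the threshold, where 5.96% of 7936 genes passed, and 1.52% passed in this direction. Junb came next at 1.24 (SE 0.392, adjusted p 0.0575), followed by Atf3 at 1.37 and Egr1 at 1.00, with adjusted p of 0.128 and 0.154 in limma. All 9 values were positive, with a median of 0.83 against -0.09 over all genes. Heart enters with the low array: without wild-type heart 4 the value was 2.32 for Fos and 0.82 for Junb, both past the threshold (adjusted p 0.0285 and 0.0325 in limma), where 10.4% of genes passed, and Klf4 turned to -0.07. The median of the 9 was then 0.38, and Jun went from 0.83 to 0.20.

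The Fos call was not stable to the choice of arrays. Each of the 16 heart and white fat arrays was left out in turn, and the Fos value stayed between 1.95 and 2.60. It passed the threshold in 7 of these fits and not in 9, with adjusted p from 0.0285 to 0.0975 in limma. The call was lost without wild-type heart 1, without heterozygous heart 1, 2 or 3, without wild-type fat 1 or 2, and without heterozygous fat 2, 3 or 4. Fos was also not called (adjusted p 0.0667 in limma) when probes were not filtered on detection. Array brightness was not a covariate in this fit. Mean raw intensity was higher in heterozygous than in wild-type hearts (433 to 477 against 368 to 421). In white fat it was lower in heterozygous mice (553 to 666 against 702 to 820). Brightness and genotype therefore cannot be told apart in the Fos value.

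Heart against bone gave positive values for all 9 genes too, from 0.37 for Fosb to 1.56 for Fos, with a median of 0.67 against -0.04 over all genes. None passed, where 0.0252% of genes did. At an unadjusted p under 0.05, Junb (1.17), Klf2 (0.40), Egr1 (1.07) and Fos were counted, 4 of 9, where 11% of all genes were. Without wild-type heart 4 the same 4 genes were counted, where 11.8% of genes were, and none passed, where 0.598% did. Junb was then 0.75, and the median of the 9 was 0.45. Bone against white fat gave 3 positive and 6 negative values, and none of the 9 passed, where 3.19% of genes did, nor was any under an unadjusted p of 0.05, where 20.9% were. Each pair of these comparisons shares the arrays of a tissue, so their values are not independent of each other.

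**Figure D3:**
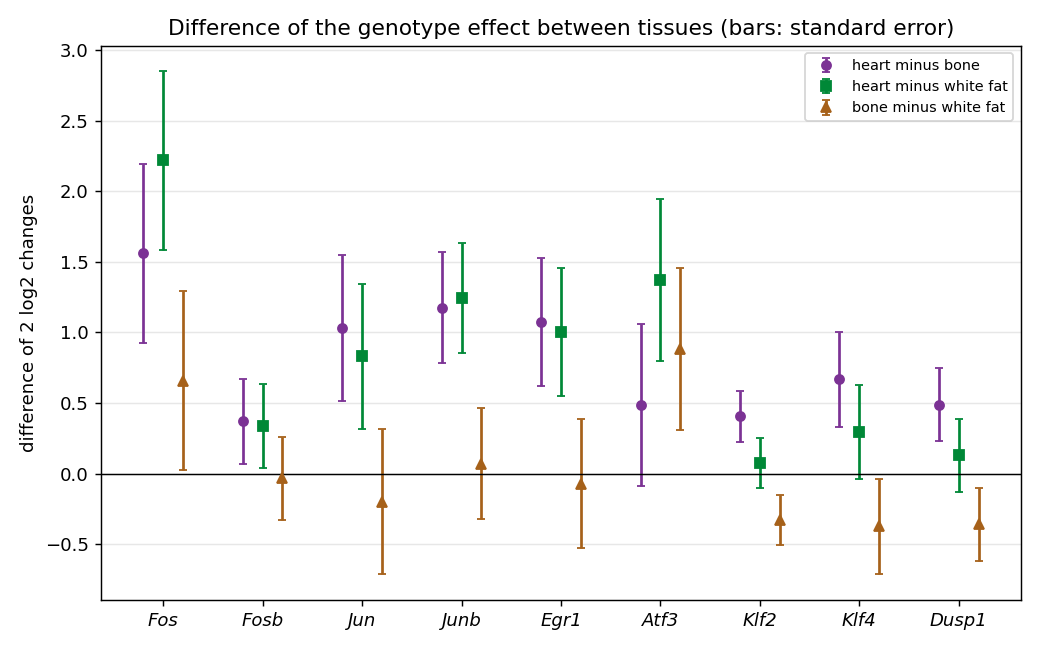
Difference between tissues of the genotype's log2 change (vertical axis) for the 9 genes: heart minus bone (purple), heart minus white fat (green) and bone minus white fat (brown), with standard errors as bars. Heart minus white fat for Fos, at 2.22, is the largest, and the bone minus white fat points lie on both sides of 0. Klf4 is the probe ILMN_2999439 throughout.

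Between tissues of wild-type mice, levels were compared on the scale of the 24 arrays normalized together, on which most genes differed: 76.5% of genes passed for heart against bone, 73.2% for heart against white fat and 69% for bone against white fat. Of the 9, Klf2, Atf3 and Fos passed for heart against bone, Jun, Fos and Klf4 for heart against white fat, and Klf2, Jun and Klf4 for bone against white fat. Fos was lowest in heart, 6.91 ± 0.52 (SD, n = 4), and read 8.17 ± 0.86 in bone and 8.24 ± 0.40 in white fat. Both gaps to heart passed (adjusted p 0.0143 and 0.0106 in limma) and did so under every alternative tried, while bone and white fat did not differ beyond their spread. Klf4 was highest in white fat, 9.10 ± 0.23 (SD, n = 4), against 7.92 ± 0.13 in bone and 7.91 ± 0.72 in heart, and its gaps to white fat, too, passed under every alternative tried. Without wild-type heart 4, Klf4 was 0.35 higher in heart than in bone (adjusted p 0.0282 in limma). With the authors' values it was lower in heart (-0.71, adjusted p 0.0337 in limma). The Klf4 means given here are those of the probe ILMN_2999439. The other Klf4 probes read lower in wild-type heart than in wild-type bone, 4.96 against 6.04 (ILMN_1221264) and 5.62 against 7.24 (ILMN_1241903). They were detected on only 1 and 3 of the 8 hearts.

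Jun was likewise highest in white fat, 8.27 ± 0.18 (SD, n = 4), against 7.25 ± 1.28 in heart and 7.23 ± 0.37 in bone, and its gap between bone and white fat was lost with the authors' own normalization (-0.93, adjusted p 0.0506 in limma). Without wild-type heart 4 the heart lay between the other tissues, 0.65 above bone and -0.38 from white fat, with both gaps past the threshold, which 82% and 78% of genes then passed. Klf2 was lowest in bone, 9.90 ± 0.26 (SD, n = 4), against 10.48 ± 0.13 in heart and 10.51 ± 0.13 in white fat, and its gap between heart and bone was lost (0.24, adjusted p 0.101 in limma) with the authors' own normalization. Atf3 was 0.98 higher in heart than in bone (adjusted p 0.0329 in limma), a call lost without wild-type heart 4 (adjusted p 0.0549), under median scaling (0.33) and with the authors' values (0.34). It was lower in bone than in white fat under median scaling (-1.06, adjusted p 0.0278 in limma) and with no background correction (-0.40, adjusted p 0.0332). Egr1 read 10.34, 10.74 and 10.87 in heart, bone and white fat, Dusp1 11.11, 11.37 and 11.40, Fosb 5.29, 5.09 and 5.37, and Junb 8.49, 8.95 and 8.39, with no gap past the threshold. This depended on the setting for Junb, Egr1 and Dusp1. Without wild-type heart 4, Junb was 0.52 higher in heart than in white fat (adjusted p 0.00856 in limma). It was lower in heart than in bone under median scaling (adjusted p 0.0197) and with the authors' values (-1.07, adjusted p 0.00593). With the authors' values it was also 0.78 higher in bone than in white fat (adjusted p 0.0398 in limma). Egr1 (-0.78, adjusted p 0.0309) and Dusp1 (-0.46, adjusted p 0.0284) were lower in heart than in white fat under median scaling, and Dusp1 was lower in heart than in bone with the authors' values (-0.52, adjusted p 0.0131 in limma).

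Fos, Egr1, Junb and Dusp1 were among the more variable genes of their level between animals of the same group in each tissue, with and without wild-type heart 4, and the other 5 were not. The residual standard deviation of each gene was given as a percentile among genes of similar level, after all genes of the tissue had been divided by level into 10 bins of equal size. In bone, all 9 genes were above a percentile of 75, with Fos at 100, Atf3 at 99.8 and Egr1 at 99.6. In white fat 7 of 9 were, the exceptions being Jun (34.0) and Fosb (23.7), and Egr1 (98.5), Dusp1 (97.5), Atf3 (97.1) and Fos (95.9) were highest. In heart without wild-type heart 4, 4 of 9 were above 75, with a median of 73.3: Egr1 (99.9), Dusp1 (98.7), Fos (98.5) and Junb (96.5) were high, and Klf4 (24.4) and Atf3 (37.5) were low. With that array included, 6 of 9 were above 75 and none above 91.1, Klf2 (23.7), Fosb (23.1) and Atf3 (8.90) were low, and the median residual standard deviation over all genes was 0.278, against 0.148 without it. Egr1, Fos, Junb and Dusp1 were thus above 75 in every tissue with and without that array, the lowest being Dusp1 at 76.8 in the 8 hearts and Junb at 82.1 in white fat.

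**Figure D4:**
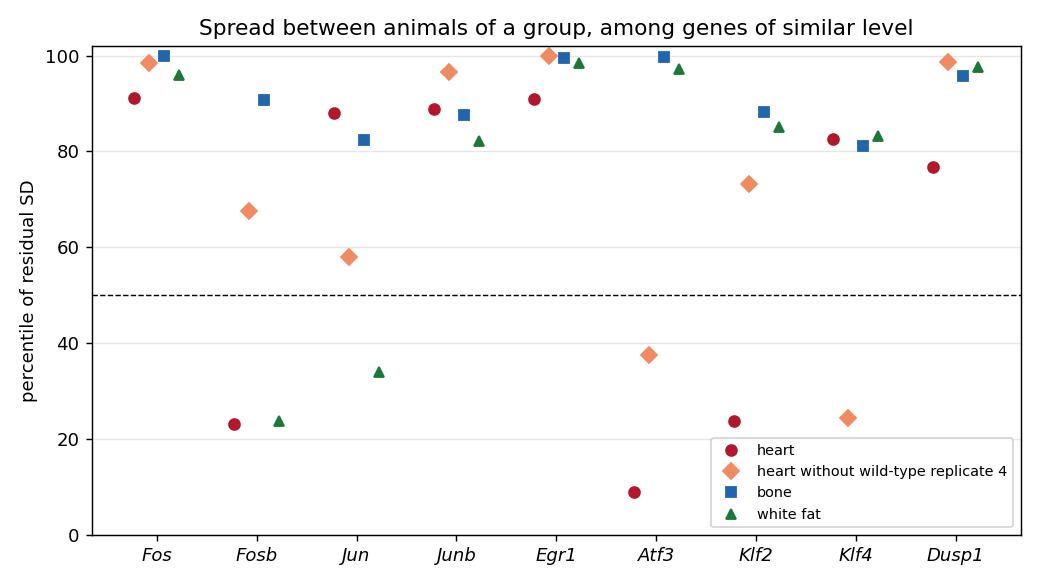
Percentile of each gene's residual standard deviation among genes of similar level (vertical axis, 0 to 100) in heart, heart without wild-type replicate 4, bone and white fat. The dashed line marks 50, and in bone (squares) all 9 genes lie at 81.2 or above.

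Bone and white fat came from the same mice by their numbers, so an animal could be followed across tissues. Heterozygous mouse 1 had the highest Fos of its group in both, 8.66 in bone and 8.56 in white fat, where the other heterozygous mice read 7.37 to 7.54 and 7.16 to 7.50. Its Dusp1 (11.47 and 12.36), Egr1 (10.82 and 11.10) and Junb (8.98 and 8.61) were also the highest of its group in both. Wild-type mouse 4 was highest of its group for Dusp1 and Egr1 in both tissues, but for Fos only in bone (9.44 in bone and 8.69 in white fat). Atf3 did not follow the animal: wild-type mouse 4 had the highest bone value, 6.61, and, at 5.87, the lowest wild-type fat value. Junb of that mouse was likewise the highest of its group in bone, 9.27, and the lowest in white fat, 8.53. Over 8513 genes, bone and fat deviations of an animal from their group means correlated between -0.25 and 0.03 for the 8 pairs of arrays, a description across genes that are not independent. The lowest value, -0.25, was that of wild-type 3, whose mouse number is in doubt.

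**Figure D5:**
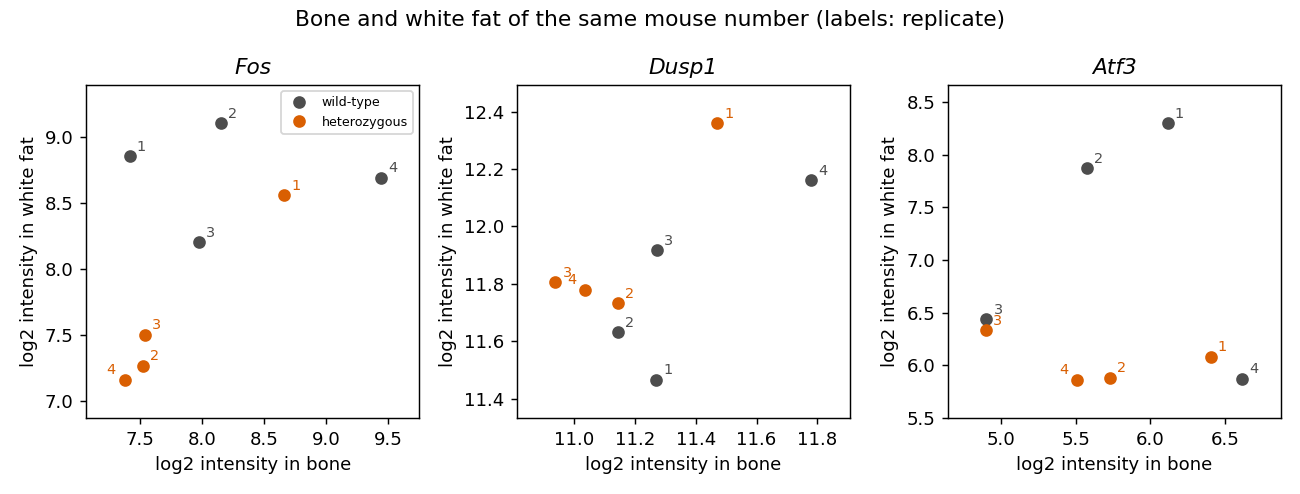
Log2 intensity in bone (horizontal axis) against white fat (vertical axis) for Fos, Dusp1 and Atf3, each point a mouse with its replicate number, grey wild-type and orange heterozygous. Heterozygous mouse 1 is the highest heterozygous animal for Fos and Dusp1 on both axes, and the high fat values of Atf3 belong to wild-type mice 1 and 2.

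The genes most like the 9 in each tissue were those with the highest Pearson correlation to the mean of their centred levels over 8 arrays, given here as a description. In heart they were Adipor1 (0.97), Thop1 (0.96), Cep57 (0.93), Dyrk2 (0.93) and Hlcs (0.93), and without wild-type heart 4, over 7 arrays, Nol10 (0.96), Kdm6a (0.96), Grap (0.96), Cep57 (0.95) and Prim2 (0.94). Only Cep57 was in both. In bone they were Pkm, Uqcr10, Trp53inp2, Blcap and Trim3 (0.93 to 0.95), and in white fat Aatf, Trpv1, Elf1, Mrpl18 and Pdlim2 (0.94 to 0.97). None belongs to the lists of early-response genes or of their upstream factors used here.

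Of 59 other early-response genes, 55 had a probe, and 36 were tested in heart, 42 in bone and 37 in white fat. None passed the adjusted threshold in any tissue (limma). By the unadjusted p, 2 were higher and 1 lower in heart (1.71% and 3.84% of all genes), 2 higher and 1 lower in bone (8.05% and 10.4%), and 4 higher and 9 lower in white fat (15.6% and 14%). Their median changes were 0.06, -0.05 and -0.00, against -0.09, -0.03 and 0.03 over all genes. They did not share the uniform sign of the 9 in heart, where 19 were above 0 and 17 below, although only 36% of all genes were above 0 there. The smallest p in heart were those of Sgk1, a kinase induced by steroid and osmotic signals (0.60, SE 0.116), Errfi1, an inhibitor of epidermal growth factor receptors (0.53), and the phosphatase Dusp10 (-0.42). In bone they were the AP-1 subunit Jund (-0.42), the NF-kappaB inhibitor Nfkbia (0.25) and Klf5 (0.23). In white fat they were Cebpb, a factor of fat-cell differentiation (-0.71), the clock gene Per1 (0.77) and the phosphatase Dusp6 (-0.38), each with an adjusted p of 0.0602 in limma.

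Of 30 upstream kinases and transcription factors, 19 were tested in heart and 20 in each of bone and white fat, and none passed. The smallest p were those of Mef2a (0.54), Creb1 (-0.42) and Rps6ka3 (0.24) in heart, Mef2c (-0.40), Creb1 (-0.36) and Mef2a (0.35) in bone, and Elk3 (-0.74), Map2k6 (-0.87) and Map2k4 (-0.26) in white fat. Elk3 is a partner of serum response factor, and Map2k6 and Map2k4 are kinases of the stress-activated cascades. The counts by the unadjusted p were 1 higher in heart (1.71% of all genes), 1 higher and 2 lower in bone (8.05% and 10.4%), and 3 higher and 4 lower in white fat (15.6% and 14%), so the bone and fat counts are near the background.

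Of 20 genes of handling stress and hypoxia, 18 were tested in each tissue and none passed. In heart the smallest p were those of the cell-cycle inhibitor Cdkn1a (0.46), the hypoxia-induced Ddit4 (0.63) and the chaperone Hsp90aa1 (-0.55), in bone those of the chaperone Hsph1 (-0.63), the heme oxygenase Hmox1 (0.53) and Ddit3 (-0.28), and in white fat those of Txnip (0.39), Cdkn1a (-0.42) and Hmox1 (-0.85). The median change of this list was 0.11 in heart, -0.07 in bone and -0.03 in white fat, against -0.09, -0.03 and 0.03 over all genes. By the unadjusted p, 2 were higher in heart (1.71% of all genes), 1 was higher and 4 lower in bone (8.05% and 10.4%), and 1 was higher and 2 lower in white fat (15.6% and 14%). In heart 13 of the 18 were above 0, where 36% of all genes were, and without wild-type heart 4, 4 were higher by the unadjusted p, where 4.78% of genes were. Without the bone arrays of the shared mouse number, Mef2c (-0.57) and the stress genes Hsph1 (-0.72), Ddit3 (-0.40) and Hspa1a (-1.43) passed, where 7.89% of genes did. Neither that choice in white fat nor leaving out wild-type heart 4 brought any gene of the lists past the threshold.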

How the data were processed

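Total RNA of 24 tissue samples was hybridised as biotinylated cRNA to Illumina bead arrays, per the labels' protocols, and read with GenomeStudio 2011.1, per the submitters' processing notes. A pair of tables of the same arrays was used. One holds raw intensities deposited without visible scaling, and the other holds intensities that the authors had background-subtracted and normalized by a method not given in the sources used here, with a detection p-value deposited beside each value. Both orders of probes agree within every array (rank correlation 1). The raw intensities were corrected with normexp by detection p-values (offset 16), quantile-normalized over the 8 arrays of a tissue and converted to log2 values, since the table called non-normalized held values below 0 and near-equal quartiles. The kept probe with the highest mean stood for a gene. Platform annotation gave 1 symbol to 23978 of 25697 probes and none to 1719.

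Each tissue was fitted with limma 3.58.1 in R 4.3.3 (lmFit, eBayes with a variance trend, Benjamini-Hochberg adjustment over all genes kept, threshold 0.05). A joint fit of the 24 arrays, with the mouse number as a block (statmod 1.5.0), gave the differences between tissues. Motifs were searched in RefSeq promoter windows (GRCm38.p6). Scripts were tested on simulated data. No array slide could be read from the column names, and the number of arrays limits precision. The genes, the gene lists and the rule for naming genes (all members, the 3 smallest p per list and tissue, and the 5 best correlated genes per tissue) were chosen with earlier results of these data known. Replicate numbers were not taken to pair samples across genotypes, and a block by number was an alternative. Alternatives were background correction, normalization, filters, brightness, blocks and left-out arrays.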

Additional observations from a re-analysis of the deposited data

Results flagged for a closer look

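Array values far from the other 3 of their group occurred in 7 of 62 combinations of probe and group. The rule would pick about 1 in 20 if values were independent and normally distributed. Values on an array are not independent, and the share over all probes was not counted. The count therefore has no background beside it. In bone, heterozygous replicate 1 read 8.98 for Junb and 8.66 for Fos, above 8.44 to 8.52 and 7.37 to 7.54 on the others. The same mouse read 12.36 for Dusp1 in white fat, where the others read 11.73 to 11.80. Wild-type heart 4 read 6.27 for Junb and 5.83 for Klf4, below 8.03 to 8.26 and 7.33 to 7.52. Klf2 read 10.06 on wild-type heart 1, above 9.77 to 9.82 on the others, and 11.11 on wild-type fat 3, above 10.84 to 10.86. The genotype difference of Fos was 2.22 log2 units larger in heart than in white fat, past the threshold in the joint limma fit (adjusted p 0.0437).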

How the results depend on the processing

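In heart none of the 9 genes passed under any of 18 alternatives and all directions held, while median scaling moved the median of all genes from -0.09 to 0.07. Without wild-type heart 4, leaving out any further array gave a count of 0 to 0. Left-out arrays gave 0 to 1 gene in bone and 0 to 3 in white fat, and 0 to 3 for heart minus white fat. Calls over all genes ranged from 0 to 1 (heart), 0 to 806 (bone) and 0 to 1302 (white fat). Same-numbered arrays of the genotypes gave correlations of deviations of -0.18, -0.15, 0.26 and -0.07 for heart, of -0.09, 0.02, 0.06 and -0.05 for bone and of 0.39, 0.15, -0.05 and 0.40 for white fat. Not every pair was above 0.1, so the numbers were not taken to pair the samples, although 3 of 4 white fat samples correlated best with their own number. With the replicate block the count was 0 for heart, 1 for heart without wild-type replicate 4 (Fos, 1.73, adjusted p 0.0376 in limma), 0 for bone and 2 for white fat (Fos and Klf4, adjusted p 0.0262 and 0.0126 in limma), where 1302 genes then passed. For heart without wild-type replicate 4 the share of all genes passing with the block was not counted. The Fos call in that fit therefore has no background beside it. For heart minus white fat the count was 2 with no background correction and 0 with no detection filter, and for wild-type heart against white fat it was 5 under median scaling, against 3. With no sign change, no background correction moved 5 of 9 differences by over 1.5 times in heart, 4 in bone and 3 in white fat, and the brightness covariate 4, 2 and 6. The causes were not tested. Leaving out single arrays of bone gave -0.23 to 0.034 for Fosb, -0.21 to 0.056 for Jun, -0.47 to 0.10 for Atf3, -0.18 to 0.0054 for Klf2 and -0.20 to 0.023 for Klf4. The same gave -0.020 to 0.25 for Dusp1 in white fat and, for heart minus white fat, -0.039 to 0.15 for Klf2 and -0.073 to 0.44 for Klf4. In white fat signs also turned for Jun under median scaling (-0.030) and with brightness as a covariate (Fosb 0.015, Jun -0.16, Dusp1 -0.079). For bone minus white fat, Fosb was 0.0068 under median scaling and 0.029 with the authors' values. Wild-type heart minus bone turned for Jun under median scaling (-0.36) and with the authors' values (-0.68), and for Klf4 with no background correction (0.022) and without heart replicate 4 (0.35). Wild-type heart minus white fat turned for Junb and Atf3 under median scaling (-0.54 and -0.74) and with the authors' values (-0.29 and -0.69), and for Atf3 with no background correction (-0.038) and without heart replicate 4 (-0.0029). Wild-type bone minus white fat turned with the authors' values for Fos (0.10), Egr1 (0.079) and Dusp1 (0.18). The slide block was not run. Leaving out the heart and fat arrays in turn for the difference between tissues was chosen after seeing the data, as were the list counts and correlations without doubted arrays.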
